A study of Mus musculus with 8 samples.

Results

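The 6 genes described here were Myc, Mycn and Mycl, which encode the MYC family of transcription factors, Lin28a and Lin28b, which encode a pair of related RNA-binding proteins, and Trim71, which encodes an RNA-binding ubiquitin ligase. They were chosen by name from the 21938 protein-coding genes of the GENCODE annotation of mm10, and each was taken with 50 kb either side of its gene body. The 6 windows together spanned 800.2 kb. Peaks of the 8 deposited lists that touched a window formed 53 merged regions, with 7 at Myc, 7 at Mycn, 14 at Mycl, 6 at Lin28a, 7 at Lin28b and 12 at Trim71.

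Mouse embryonic fibroblasts (MEFs) were profiled at day 5 of reprogramming by CUT&Tag, a method in which a transposase tethered to a bound antibody cuts and tags the DNA around it. The 4 libraries labelled Nanog+Oct4 came from cells that received wild-type Nanog and Oct4 and are called NanogWT. The 4 libraries labelled NanogN70+Oct4 came from cells that received Oct4 with NanogBiD, which the study's text describes as full-length Nanog carrying at its N-terminus the stretch of SS18 that binds BRG1. Each arm was profiled for FLAG (the tag on NANOG), BRG1 (the ATPase of the BAF remodelling complex), H3K27ac (a mark of active promoters and enhancers) and H3K4me1 (a mark of enhancers). Both arms therefore carried exogenous Oct4 and exogenous Nanog, delivered by pMXs retroviral vectors into MEFs from mid-gestation embryos with the OG2 Oct4-GFP reporter, in a chemically defined reprogramming medium called iCD3. The cells were not sorted, so each library is an average over all cells in the dish, and more cells with a peak cannot be told apart from more signal in each cell.

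MYC proteins pair with MAX and bind E-box sequences at genes of growth, ribosome production and metabolism, and Myc is a classic reprogramming factor. LIN28 proteins bind the precursors of let-7 microRNAs and block their maturation, and let-7 in turn represses Myc family, Lin28 and Trim71 transcripts. TRIM71 represses messenger RNAs in embryonic cells and falls silent as cells differentiate. Fibroblasts are rich in let-7, while pluripotent cells have little of it.

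Each group held 1 library, made from replicates that the authors had merged, so no difference between arms could be tested and no error between replicates can be given. Intervals below are exact binomial 95% intervals on counts and cover counting error only. The height of a summit is the number of overlapping tags there, and it was not scaled to library depth, which is unknown. A region without a peak is one where the caller's threshold was not reached, which does not show that the protein or mark was absent. H3K27ac promoter peaks were found at 9 of 10 fibroblast genes in each arm. Of 8 genes of pluripotent cells, 0 had one in NanogWT and 2 (Tdgf1 and Sall4) had one in NanogBiD. Of 3 genes each of epithelial, blood and endothelial cells, 0, 0 and 1 had one in NanogWT and 1, 1 and 2 in NanogBiD, and the part of such cells in the differences below was not tested.

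The sequences below are those around the FLAG summits of the 13 regions on which the comparisons turn, read from the forward strand of the mouse reference genome GRCm38 (the same build as mm10). They comprise the 3 regions with FLAG and BRG1 in NanogBiD alone, the 3 with both in NanogWT alone, and those with the tallest FLAG summit of each gene, of which Mycl had 2 of equal height. Each window reaches 100 bp either side of the summit. Capitals mark matches, on either strand, to the OCT octamer ATGCAAAT, to the SOX letters ACAATGG or ACAAAGG, to the NANOG core TAATGG, to the AP-1 letters TGACTCA or TGAGTCA, to the TEAD letters GGAATG, or to the E-box CACGTG.
Mycl, 4.84 kb upstream, NanogBiD only, chr4:122990712-122990912: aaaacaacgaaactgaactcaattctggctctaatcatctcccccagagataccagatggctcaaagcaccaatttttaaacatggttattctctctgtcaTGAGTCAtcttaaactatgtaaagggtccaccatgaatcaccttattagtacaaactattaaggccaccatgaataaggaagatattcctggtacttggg
Mycl, 52.5 kb downstream, NanogBiD only, chr4:123048064-123048264: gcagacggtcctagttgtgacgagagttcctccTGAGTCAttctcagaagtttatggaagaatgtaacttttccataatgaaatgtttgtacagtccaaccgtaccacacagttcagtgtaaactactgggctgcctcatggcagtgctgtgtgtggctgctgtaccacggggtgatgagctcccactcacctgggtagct
Myc, 30.0 kb downstream, NanogBiD only, chr15:62015261-62015461: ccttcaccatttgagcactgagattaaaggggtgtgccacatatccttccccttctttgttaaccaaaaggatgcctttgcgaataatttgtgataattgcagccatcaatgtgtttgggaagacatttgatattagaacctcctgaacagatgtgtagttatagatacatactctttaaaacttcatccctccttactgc
Myc, 18.6 kb downstream, NanogWT only, chr15:62003846-62004046: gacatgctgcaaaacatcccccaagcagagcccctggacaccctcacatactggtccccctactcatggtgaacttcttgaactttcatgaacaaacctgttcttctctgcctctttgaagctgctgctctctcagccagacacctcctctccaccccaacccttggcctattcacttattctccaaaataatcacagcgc
Mycn, 37.1 kb downstream, NanogWT only, chr12:12904722-12904922: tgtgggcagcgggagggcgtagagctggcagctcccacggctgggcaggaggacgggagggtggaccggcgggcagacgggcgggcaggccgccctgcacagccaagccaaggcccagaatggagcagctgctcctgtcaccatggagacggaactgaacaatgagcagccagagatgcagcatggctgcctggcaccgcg
Trim71, 61.5 kb downstream, NanogWT only, chr9:114502787-114502987: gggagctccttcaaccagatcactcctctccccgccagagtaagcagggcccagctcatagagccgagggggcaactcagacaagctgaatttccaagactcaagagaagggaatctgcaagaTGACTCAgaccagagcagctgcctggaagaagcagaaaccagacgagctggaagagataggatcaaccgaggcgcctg
Mycl, 10.4 kb upstream, taller in NanogBiD, chr4:122985119-122985319: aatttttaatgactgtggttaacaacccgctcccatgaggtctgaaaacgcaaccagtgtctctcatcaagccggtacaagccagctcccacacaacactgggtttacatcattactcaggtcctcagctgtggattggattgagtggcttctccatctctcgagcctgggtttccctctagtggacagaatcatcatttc
Mycl, 42.8 kb upstream, taller in NanogWT, chr4:122952780-122952980: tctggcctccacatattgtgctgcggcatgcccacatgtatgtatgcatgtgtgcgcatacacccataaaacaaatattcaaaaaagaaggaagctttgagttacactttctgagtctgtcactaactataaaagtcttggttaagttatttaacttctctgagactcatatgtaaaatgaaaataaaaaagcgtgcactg
Myc, 0.288 kb upstream, both arms, chr15:61985003-61985203: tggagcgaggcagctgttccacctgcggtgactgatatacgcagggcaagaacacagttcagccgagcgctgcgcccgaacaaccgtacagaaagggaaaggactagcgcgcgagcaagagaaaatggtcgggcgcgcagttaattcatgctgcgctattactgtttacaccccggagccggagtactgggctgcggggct
Mycn, 49.0 kb downstream, both arms, chr12:12892787-12892987: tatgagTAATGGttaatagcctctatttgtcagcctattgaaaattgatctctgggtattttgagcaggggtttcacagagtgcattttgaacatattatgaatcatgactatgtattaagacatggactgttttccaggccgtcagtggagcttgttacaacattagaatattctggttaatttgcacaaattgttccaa
Lin28a, 23.2 kb upstream, both arms, chr4:134041924-134042124: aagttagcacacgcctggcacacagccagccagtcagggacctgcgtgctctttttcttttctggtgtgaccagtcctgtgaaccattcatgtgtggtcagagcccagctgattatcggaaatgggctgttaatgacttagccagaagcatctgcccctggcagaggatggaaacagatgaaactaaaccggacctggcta
Lin28b, 146 kb downstream, both arms, chr10:45340088-45340288: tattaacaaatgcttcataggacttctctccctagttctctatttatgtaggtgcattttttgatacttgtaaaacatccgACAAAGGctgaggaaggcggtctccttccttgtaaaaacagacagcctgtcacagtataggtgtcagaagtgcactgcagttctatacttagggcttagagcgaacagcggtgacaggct
Trim71, 20.3 kb upstream, both arms, chr9:114584577-114584777: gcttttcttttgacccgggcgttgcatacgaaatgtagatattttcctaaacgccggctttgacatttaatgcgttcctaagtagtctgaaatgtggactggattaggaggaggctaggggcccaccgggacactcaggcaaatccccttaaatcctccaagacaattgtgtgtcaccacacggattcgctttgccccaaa

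AP-1 letters were found in 3 of these 13 windows, namely both NanogBiD-only windows of the Mycl locus and the NanogWT-only window downstream of Trim71. The NANOG core stood in 1 window, at the tallest FLAG summit near Mycn, and the SOX letters in 1, at the tallest near Lin28b. The octamer, TEAD and E-box letters were found in 0 of them. In windows of the same length around all FLAG summits, AP-1 letters were found at 11.3% of 58935 NanogWT summits and 14.0% of 74770 NanogBiD summits. The octamer was found at 3.29% and 4.39% of them, the SOX letters at 8.01% and 8.96%, the NANOG core at 9.45% and 13.2%, the TEAD letters at 13.9% and 13.0%, and the E-box at 3.37% and 3.43%. A match is a run of letters and not a measured binding site.

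Across the 6 windows FLAG peaks numbered 28 in NanogWT and 34 in NanogBiD (ratio 1.21, 0.715 to 2.08). BRG1 peaks numbered 21 and 24 (ratio 1.14, 0.61 to 2.16), and H3K27ac peaks numbered 20 in each arm (ratio 1.0, 0.511 to 1.96). For H3K4me1 there were 40 and 30 (ratio 0.75, 0.451 to 1.23). Every interval spanned 1. When every list was limited to its top 20000 peaks by score, the FLAG ratio was 0.857, that of BRG1 was 0.615 and that of H3K4me1 was 1.08, so all 3 directions turned. With a height of at least 15, an alternative chosen after seeing the data, the BRG1 ratio was 2.33 (6 and 14 peaks), above its interval. The H3K27ac ratio, equal over the deposited lists, was 1.3 (10 and 13 peaks) with lists limited in this way and 1.4 (10 and 14) at a score of at least 100. Over the complete lists the FLAG ratio was 1.27, that of BRG1 was 1.74, that of H3K27ac was 1.2 and that of H3K4me1 was 0.791, and all 4 lay inside the intervals found near the 6 genes.

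The 6 genes differed in which way their peak numbers went. Mycl had the most peaks, with FLAG at 8 in NanogWT and 12 in NanogBiD and BRG1 at 6 and 9, while its H3K27ac and H3K4me1 numbers were the same in both arms at 5 and 10. FLAG and BRG1 were also more in NanogBiD with 20 and 100 kb windows. At a score of at least 100 Mycl had 4 and 7 FLAG, 3 and 5 BRG1, 3 and 5 H3K27ac and 6 and 3 H3K4me1 peaks. Among the top 20000 peaks by score its FLAG number was 1 and 1 and its BRG1 number 4 and 3. Trim71 had fewer in NanogBiD for every target, at 6 and 5 for FLAG, 4 and 2 for BRG1, 4 and 3 for H3K27ac and 10 and 6 for H3K4me1. Fewer peaks for every target were also found with 20 kb windows and with summit assignment, but not under 3 other settings. At a score of at least 100 Trim71 had 2 and 2 FLAG, 1 and 1 BRG1 and 1 and 2 H3K27ac peaks, and among the top 20000 peaks by score FLAG was 1 and 1 while H3K27ac and H3K4me1 were each 1 and 2. With 100 kb windows FLAG was 9 and 9 and H3K27ac was 6 and 6. Lin28b had 2 FLAG peaks in NanogWT and 4 in NanogBiD, while its H3K4me1 number was 5 and 2. The NanogBiD FLAG peaks with summits at 146.365 and 151.386 kb merged into 1 region with a single long NanogWT peak. With 20 kb windows Lin28b FLAG was 0 and 0, and among the top 20000 peaks by score its H3K4me1 number was 0 and 1. Myc, Mycn and Lin28a differed by at most 2 peaks for any target. Of the 24 pairs of gene and target, 8 had more peaks in NanogBiD and 9 had fewer. The balance turned with 100 kb windows (10 and 7), at a score of at least 100 (8 and 7) and among the top 20000 peaks by score (7 and 6).

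**Figure D1:**
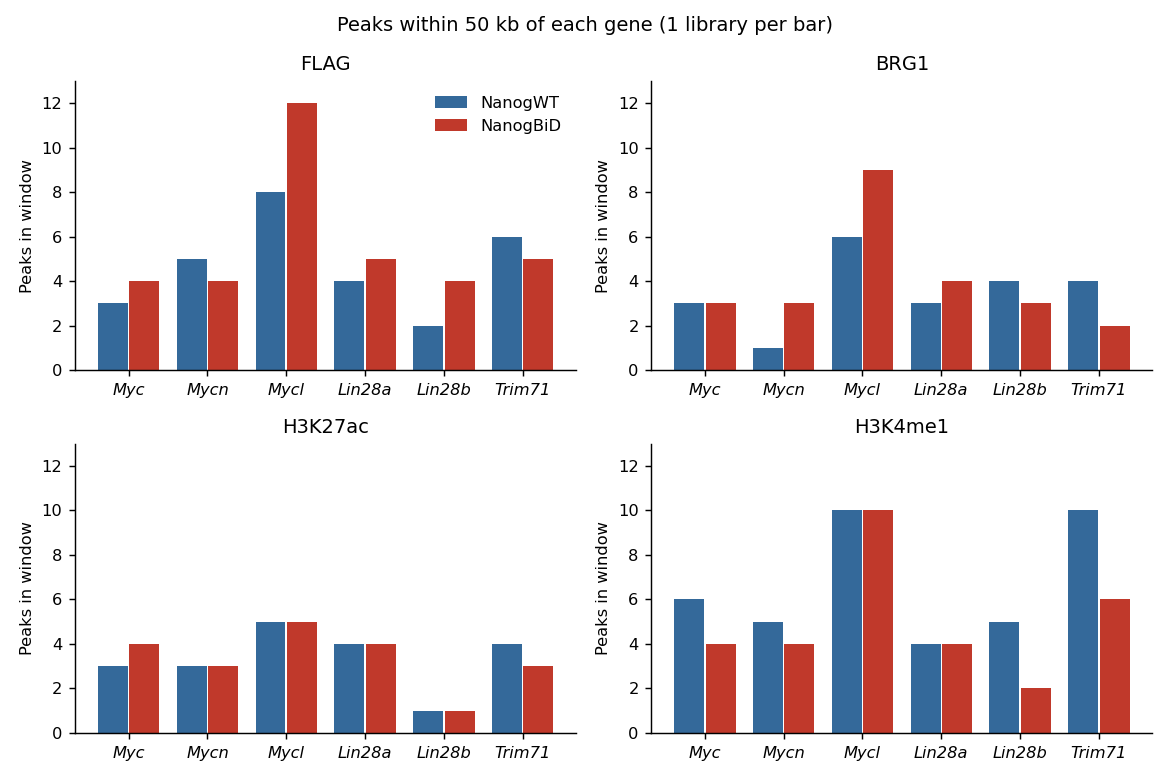
Number of peaks within 50 kb of each gene for FLAG, BRG1, H3K27ac and H3K4me1, with NanogWT in blue and NanogBiD in red and 1 library behind each bar. Mycl stands highest for FLAG in both arms, at 8 and 12 peaks, and H3K4me1 bars of Trim71 go from 10 in NanogWT to 6 in NanogBiD.

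Of the FLAG regions near the 6 genes, 11 of 39 had a peak in NanogBiD only and 6 in NanogWT only, or 28.2% and 15.4%, beside 33.7% and 15.8% of all FLAG regions. For BRG1 the counts were 8 and 5 of 29, or 27.6% and 17.2%, beside 48.4% and 9.91% of all BRG1 regions. H3K27ac had 4 regions in NanogBiD only and 5 in NanogWT only of 24, beside 29.1% and 14.6% of all its regions. H3K4me1 had 7 and 17 of 47, or 14.9% and 36.2%, beside 17.3% and 34.8% of all its regions. The FLAG and H3K4me1 shares were thus near those of the complete lists.

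FLAG and BRG1 lists of both arms merged into 42 regions near the 6 genes. Both proteins had peaks in both arms at 12 of them, beside 23.7% of all merged regions in the genome. Both had peaks in NanogBiD only at 3 regions, 2 at Mycl and 1 at Myc, where 11.1% of all such merged regions in the genome were of this kind. Both had peaks in NanogWT only at 3 other regions, 1 each at Myc, Mycn and Trim71, where 1.55% of all were of this kind. FLAG had peaks in both arms and BRG1 in NanogBiD only at 4 regions, 2 at Mycn, 1 at Mycl and 1 at Lin28a, beside 15.2% of all. None of the 6 regions with both proteins in a single arm kept that class when only peaks with a caller's score of at least 100 were used, since a score below 100 belonged to at least 1 of the peaks in each. At that score 2 other regions had FLAG and BRG1 in NanogBiD only, and 0 had both in NanogWT only.

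**Figure D2:**
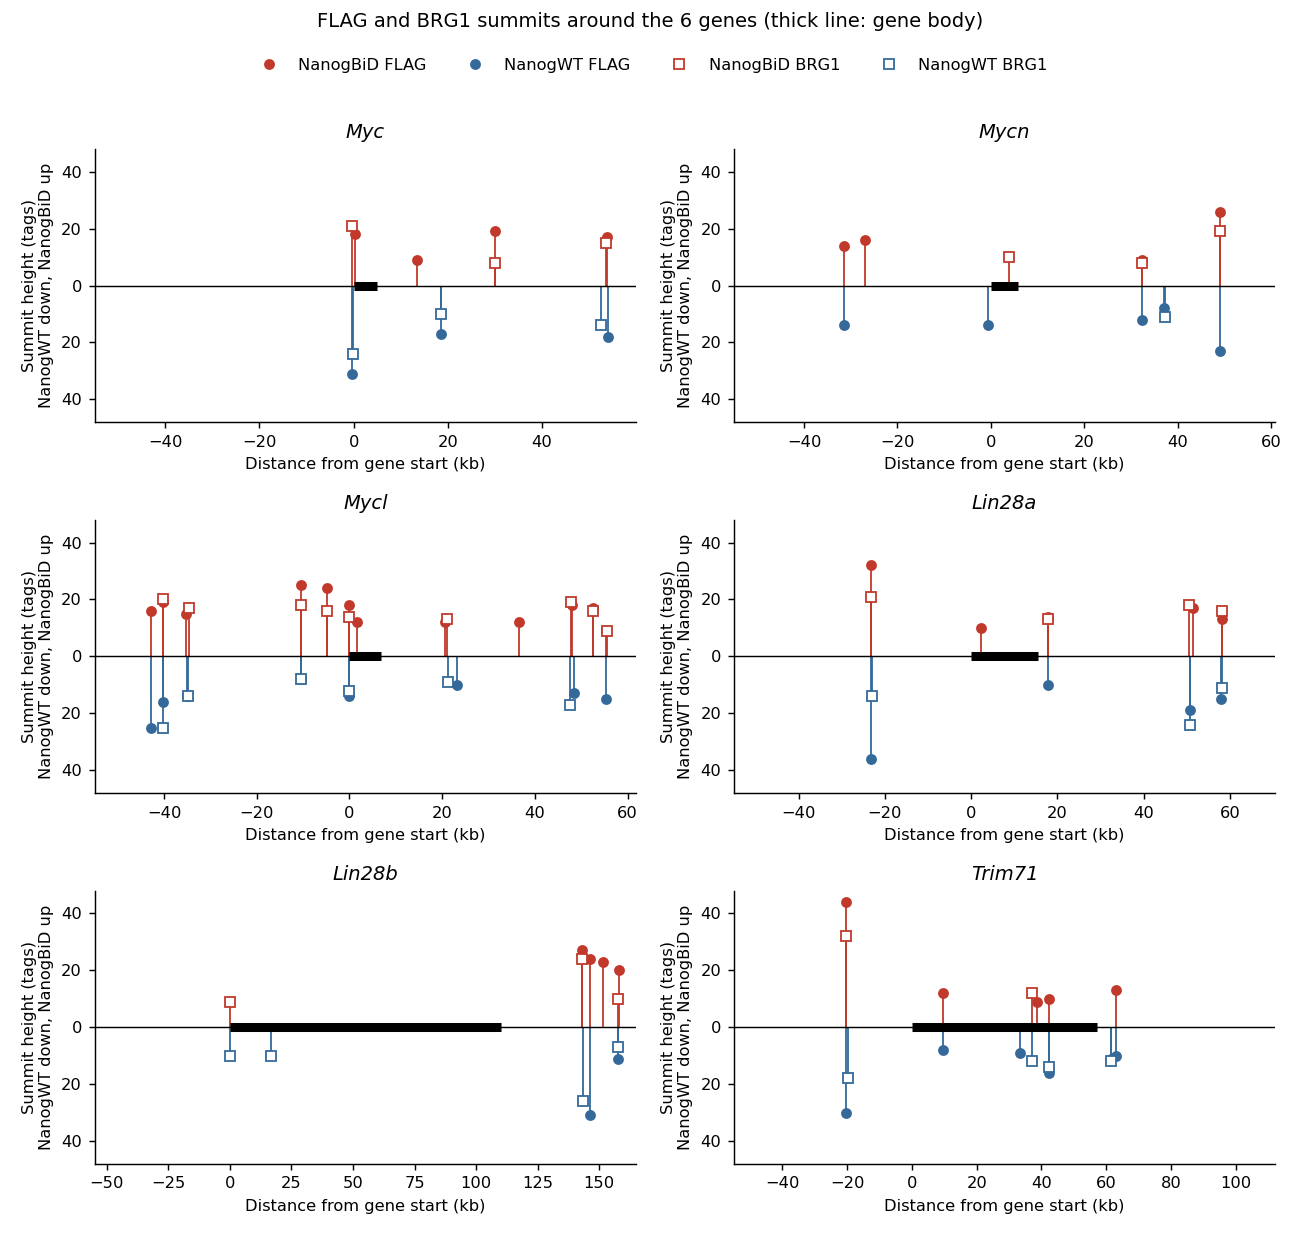
Every FLAG (filled circles) and BRG1 (open squares) summit within 50 kb of each gene, with the distance of the summit from the gene start in kb on the horizontal axis and its height in tags on the vertical axis, NanogBiD above the line and NanogWT below it. The thick line is the gene body, and the FLAG and BRG1 summits 4.84 kb upstream of Mycl have no partner below the line.

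At the Myc promoter, FLAG, BRG1 and H3K27ac had peaks in both arms. The FLAG height was 31 in NanogWT and 18 in NanogBiD, a fold of 0.581 (0.306 to 1.07), and 3.95% of all FLAG regions shared by the arms had a ratio as low or lower. These FLAG summits lay 593 bp apart. BRG1 was 24 and 21. H3K27ac was 19 in each arm at the start. NanogBiD had a separate H3K27ac peak of height 24 inside the gene, 1.887 kb downstream. The single NanogWT H3K27ac peak (chr15:61983964-61988496) also covered that stretch, so the mark was called there in both arms. H3K4me1 had a peak of height 14 in NanogWT and none in NanogBiD. The region (chr15:61983030-61988572) covered the Myc starts, and the NanogWT FLAG summit lay 0.288 kb upstream of the first of them.

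Downstream of Myc lay a pair of intergenic elements with opposite patterns, both before the start of the noncoding gene Pvt1. At 18.6 kb (chr15:62003399-62004528) FLAG had a height of 17 and BRG1 of 10 in NanogWT, with neither called in NanogBiD. H3K27ac there was 23 and 15, and H3K4me1 was 24 and 17, so both marks were called in both arms. At 30.0 kb (chr15:62014971-62015806) FLAG had a height of 19, BRG1 of 8 and H3K4me1 of 10 in NanogBiD, with none of the 3 called in NanogWT and H3K27ac called in neither arm. At the Pvt1 promoter, 54.0 kb downstream, all 8 lists had a peak, with FLAG at 18 and 17, BRG1 at 14 and 15 and H3K27ac at 29 in each arm. The BRG1 summits there lay at 52.516 and 53.683 kb, so these heights came from different places.

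Mycn, the family member first known from neuroblastoma, had its tallest FLAG summit 49.0 kb downstream (chr12:12892078-12893323), in sequence with no annotated gene. FLAG was 23 in NanogWT and 26 in NanogBiD there, with the summits 38 bp apart. BRG1, at a height of 19, and H3K27ac, at 9, were called in NanogBiD only. At 32.3 kb downstream FLAG was 12 and 9, and BRG1 (8) and H3K4me1 (12) were again called in NanogBiD only. At 37.1 kb (chr12:12904106-12905266), at a promoter of the noncoding gene 4930519A11Rik, FLAG (8) and BRG1 (11) were called in NanogWT only, while H3K27ac was 13 and 17 and H3K4me1 was 21 and 12. The 3 elements within 20 kb of each other thus fell on both sides.

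Around the start of Mycn, H3K27ac was 15 and 13 and H3K4me1 was 20 and 16. These heights came from different places. The H3K27ac summits lay at -0.773 and -0.016 kb from the gene start, and the H3K4me1 summits at 1.864 and 0.829 kb. FLAG was called near the start in NanogWT only, at a height of 14 and 0.672 kb upstream. A BRG1 peak of height 10, called in NanogBiD only, lay in the gene body at chr12:12937714-12938955 and did not overlap the FLAG peak at chr12:12942187-12943029.

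Mycl showed the most NanogBiD peaks close to its own start. The element 4.84 kb upstream (chr4:122990445-122991377) had FLAG at 24 and BRG1 at 16 in NanogBiD, with their summits 47 bp apart, and no peak in any of the other 6 lists. The element 10.4 kb upstream (chr4:122984686-122985631) was called in both arms, with FLAG at 8 in NanogWT and 25 in NanogBiD and BRG1 at 8 and 18. H3K27ac was called there in NanogBiD only, at a height of 18, while H3K4me1 was 20 in each arm. The FLAG fold was 3.12 (1.37 to 8.02), and 99.3% of all shared FLAG regions had the same or a lower ratio. The BRG1 fold was 2.25 (0.931 to 5.98), with 96.3% of all shared BRG1 regions at or below it. Both folds rest on low NanogWT peaks, with scores of 52.8 for FLAG and 69.7 for BRG1, where the lowest score in every list was 50.

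At the Mycl start (chr4:122994981-122997758) FLAG was 14 in NanogWT and 18 in NanogBiD and BRG1 was 12 and 14, with H3K27ac called in NanogBiD only at a height of 18. The H3K4me1 heights of 15 and 16 came from different places, since the NanogWT summit lay 1545 bp from the FLAG summit and the NanogBiD summit 13 bp from it. The H3K4me1 peak of 16 (chr4:122995065-122995972) was called in NanogBiD only. Where the NanogWT peak of 15 stood, NanogBiD had a peak of 13 (fold 0.867). A further FLAG peak of height 12, at 1.532 kb, was called in NanogBiD only. The other NanogBiD region lay 52.5 kb downstream (chr4:123047842-123048620) in an intron of Trit1, a tRNA-modifying enzyme, with FLAG at 17, BRG1 at 16 and no mark called. Its FLAG and BRG1 peaks had scores of 52.6 and 53.3, near the lowest score of 50 in every list. Elsewhere in Trit1 some peaks were called in NanogWT only. At 47.9 kb FLAG was 13 and 18 and BRG1 was 17 and 19, with H3K27ac (14) and H3K4me1 (18) in NanogWT only. At 55.4 kb FLAG was 15 and 9 and H3K4me1 was 24 and 16, with H3K27ac (16) in NanogWT only and BRG1 (9) in NanogBiD only.

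In the introns of Mfsd2a, a lipid transporter upstream of Mycl, stood the tallest NanogWT FLAG summit of the Mycl window, 42.8 kb upstream (chr4:122951490-122953453). FLAG was 25 in NanogWT and 16 in NanogBiD there, with the summits 27 bp apart. The fold was 0.64 (0.319 to 1.25), and 6.53% of all shared FLAG regions had a ratio as low or lower. H3K4me1 was called in NanogWT only, at a height of 17, and BRG1 and H3K27ac in neither arm. The NanogWT height of 25 equalled the NanogBiD height 10.4 kb upstream, so the tallest FLAG summit of Mycl lay at a different place in each arm. Peaks of all 8 lists stood at 40.2 kb and at 35.3 kb upstream. FLAG was 16 and 19 at the first and 14 and 15 at the second.

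Lin28a, the form typical of mouse pluripotent cells, had no BRG1, H3K27ac or H3K4me1 peak within 2 kb of an annotated start in either arm. FLAG was called there in NanogBiD only, at a height of 10 in an intron 2.39 kb from the gene start. The tallest FLAG summit lay 23.2 kb upstream, in an intergenic element (chr4:134041450-134042428) with peaks in all 8 lists. FLAG was 36 in NanogWT and 32 in NanogBiD there, with the summits 38 bp apart. BRG1 was 14 and 21, H3K27ac was 11 and 23 and H3K4me1 was 20 and 14. The H3K27ac fold was 2.09 (0.979 to 4.75), and 99.1% of all shared H3K27ac regions had the same or a lower ratio. At 17.9 kb downstream, at the promoter of Dhdds, an enzyme of dolichol synthesis, FLAG was 10 and 14, H3K27ac was 14 and 19, and BRG1 was called in NanogBiD only at a height of 13.

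Lin28b, the longest of the 6 genes at 110 kb, had BRG1 at 10 and 9 and H3K4me1 at 13 and 15 at its start, with no FLAG and no H3K27ac in either arm. At another annotated start, 16.8 kb into the gene, BRG1 (10) was called in NanogWT only and H3K4me1 (9) in NanogBiD only. All FLAG summits of its window lay at least 143 kb from the 5′ end of the gene, beyond the end of the gene, and 3 regions held them. Inside Bves, which encodes a membrane protein of heart and muscle, FLAG was 31 and 24 at 146 kb, with the summits 158 bp apart and scores of 56.7 and 54.0. H3K27ac was called near there in NanogWT only, at a height of 17. In NanogBiD, FLAG (23) and H3K27ac (19) were called at the start of Bves, with the FLAG summit at 151.386 kb, and the H3K27ac peaks of the arms did not overlap. H3K4me1 was called at the Bves start in NanogWT only, at a height of 19 and a score of 114. Further into Bves (chr10:45341332-45344037) BRG1 was 26 and 24, while FLAG was called in NanogBiD only, at a height of 27. At 158 kb from the Lin28b start FLAG was 11 and 20 and BRG1 was 7 and 10.

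Trim71 had no peak in any of the 8 lists within 2 kb of its start. Its tallest FLAG summit, and the tallest of all 6 windows, stood 20.3 kb upstream in intergenic sequence (chr9:114583657-114585475). FLAG was 30 in NanogWT and 44 in NanogBiD, a fold of 1.47 (0.902 to 2.42). BRG1 was 18 and 32, a fold of 1.78 (0.968 to 3.36), and H3K27ac was 19 and 31, a fold of 1.63 (0.893 to 3.06). H3K4me1 was 16 in each arm. The NanogWT BRG1 summit lay 540 bp from the taller FLAG summit and the NanogBiD one 61 bp from it. All 3 intervals reached 1, and 77.6%, 89.6% and 94.8% of the shared regions of FLAG, BRG1 and H3K27ac had the same or a lower ratio.

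At 61.5 kb downstream of the Trim71 start (chr9:114502265-114503471), in an intron and near a start of the neighbouring chemokine receptor gene Ccr4, the pattern was the opposite. FLAG at 11, BRG1 at 12, H3K27ac at 19 and H3K4me1 at 21 were called in NanogWT, and none of the 4 in NanogBiD. The scores of these peaks were 68.1, 58.0, 86.5 and 117. The adjoining region in the same intron (chr9:114499825-114501955), 63.0 kb downstream, did have NanogBiD peaks. FLAG was 10 and 13 there, H3K27ac was 15 in each arm with summits at 62.964 and 64.189 kb, and H3K4me1 (18) was called in NanogBiD only. Within the Trim71 introns, the element 42.4 kb downstream had FLAG at 16 and 10, with BRG1 called in NanogWT only at a height of 14. The element 38.5 kb downstream had BRG1 at 12 in each arm and H3K27ac at 13 and 12, with FLAG called in NanogBiD only at a height of 9. Of the 12 Trim71 regions, 5 had H3K4me1 alone, beside 13 of the 53 regions near all 6 genes. The share over all regions in the genome was not computed. Those 88.5, 77.0 and 48.8 kb downstream and 40.7 kb upstream were called in NanogWT only, and the one 65.9 kb downstream in both arms.

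**Figure D3:**
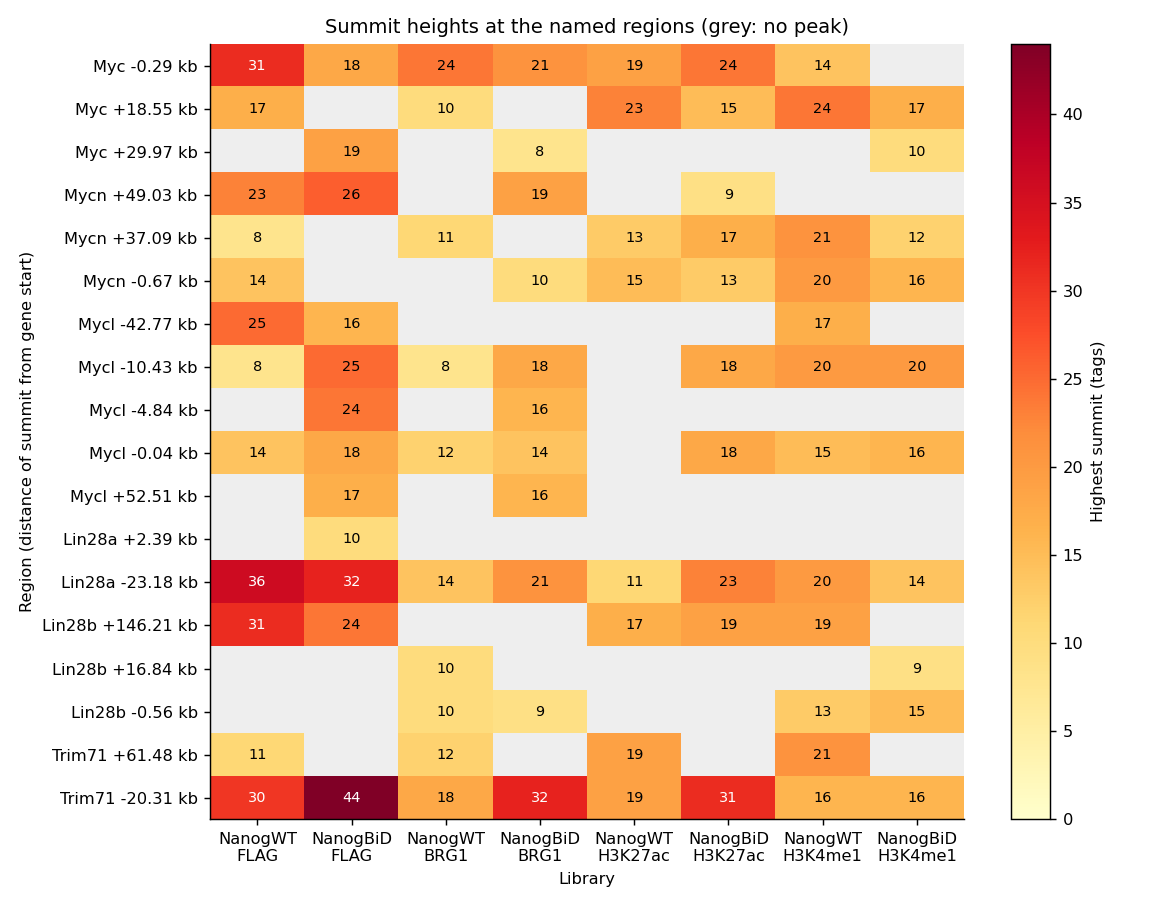
Heights, in tags, of the highest summit of each of the 8 lists at the members' starts, at regions with FLAG and BRG1 in 1 arm only and at each member's tallest FLAG summit, labelled by gene and by the distance of the FLAG summit, or of the tallest other summit, from the gene start. Heights of the arms in a row can come from different places in the region. Grey cells had no peak, as in the NanogBiD columns at the Trim71 region 61.5 kb downstream and in 6 columns at the Mycl region 4.84 kb upstream.

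At the members' own promoters (2 kb either side of any annotated start), FLAG had peaks at 3 of 6 genes in each arm, namely Myc, Mycn and Mycl in NanogWT and Myc, Mycl and Lin28a in NanogBiD. The shares among all protein-coding genes were 55.2% in NanogWT and 56.8% in NanogBiD. BRG1 had peaks at 3 genes in NanogWT and 4 in NanogBiD, beside 53.9% and 55.5% of all genes, with Mycn as the added gene. The Mycn BRG1 peak was the one in the gene body, with its summit 3.816 kb from the gene start. H3K27ac had peaks at 2 and 3, beside 57.1% and 59.9%, with Mycl as the added gene. H3K4me1 had peaks at 4 and 3, beside 63.3% and 62.0%, with Myc as the gene lacking one in NanogBiD. With 6 genes, a difference of 1 gene is a single peak call.

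Where both arms had a peak, heights near the 6 genes differed in both directions. The median log2 ratio of NanogBiD over NanogWT was 0.05 for 22 FLAG regions, 0.19 for 16 BRG1 regions, 0.00 for 15 H3K27ac regions and -0.10 for 23 H3K4me1 regions. Over all shared regions it was 0.15, 0.14, 0.08 and -0.18. FLAG was taller in NanogBiD at 11 regions, equal at 1 and lower at 10, and BRG1 was taller at 10, equal at 1 and lower at 5.

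A height at least 2-fold greater in NanogBiD was found at 1 FLAG and 1 BRG1 region, both the element 10.4 kb upstream of Mycl, and at 1 H3K27ac region, the element 23.2 kb upstream of Lin28a. Over all shared regions this was the case for 7.73% of FLAG, 7.35% of BRG1, 1.46% of H3K27ac and 0.0169% of H3K4me1 regions. No member region was at least 2-fold taller in NanogWT, where the shares over all shared regions were 1.92%, 0.465%, 0.39% and 0.858%. Of the 76 height ratios, 1 had an interval that left out 1, the FLAG ratio of the Mycl element, and these intervals were not corrected for the number of ratios.

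**Figure D4:**
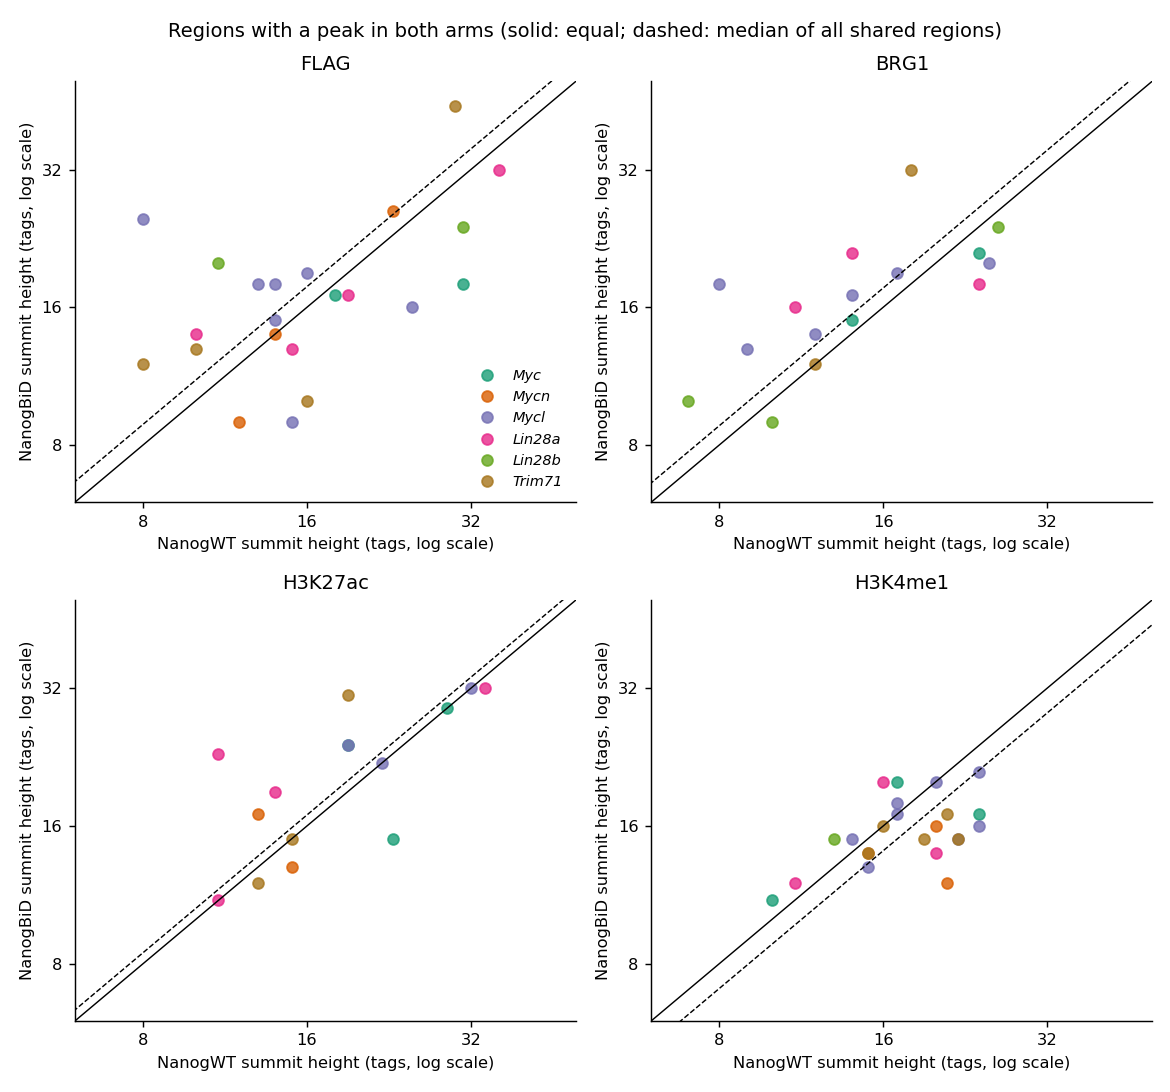
Summit heights in NanogWT (horizontal axis) and NanogBiD (vertical axis), both in tags on log scales, at regions near the 6 genes with a peak in both arms, coloured by gene. Points on the solid line are equal, the dashed line is the median ratio of all shared regions of that target, and the FLAG point farthest above the lines is the Mycl element with heights of 8 and 25.

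A list of 46 further genes of the MYC and let-7 pathways was examined within 2 kb of annotated starts. It included 12 let-7 hairpins, whose starts are not promoters. FLAG had peaks there at 34 of the 46 in NanogWT and 35 in NanogBiD, BRG1 at 36 and 34, H3K27ac at 35 in each arm and H3K4me1 at 35 and 36. The 12 hairpins held few of these, with FLAG at 2 and 3, BRG1 at 3 in each arm, H3K27ac at 2 in each arm and H3K4me1 at 2 and 3. The shares among all protein-coding genes were the 55.2% and 56.8% given above for FLAG, 53.9% and 55.5% for BRG1, 57.1% and 59.9% for H3K27ac, and 63.3% and 62.0% for H3K4me1. Hairpins are not protein-coding genes, so the counts over all 46 and these shares are of unlike sets. Over the whole list FLAG was taller in NanogBiD at 13 genes and lower at 15, with a median log2 ratio of 0.00. All 8 listed targets activated by MYC had FLAG, BRG1 and H3K27ac promoter peaks in both arms. FLAG was taller in NanogBiD at 7 of these 8, with a median log2 ratio of 0.52, beside a median of 0.11 over 11294 protein-coding genes with FLAG in both arms, 6561 of which were taller in NanogBiD. Npm1, a nucleolar chaperone, had FLAG at 24 and 42, the cell cycle gene Ccnd2 had 23 and 41, and Odc1, which makes polyamines, had 29 and 40. Cad, an enzyme of pyrimidine synthesis, had 17 and 16. The BRG1 median of the same 8 genes was 0.00, the same as over all genes, and the H3K27ac median was 0.06 beside 0.07. Both listed genes repressed by MYC, the cell cycle inhibitors Cdkn1a and Cdkn2b, also had taller FLAG in NanogBiD, at 23 and 33 and at 24 and 25 (median 0.29), while BRG1 was lower at both (median -0.27).

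Among the 11 partners and antagonists of MYC, Max, the shared dimer partner, had FLAG at 35 and 32 and BRG1 at 20 and 25. Zbtb17, which encodes the MIZ1 protein that MYC binds at repressed genes, had FLAG (8) and BRG1 (10) in NanogWT only, with H3K27ac at 22 and 25. Over the 9 of them with FLAG in both arms, FLAG was lower in NanogBiD at 5 and taller at 2, with a median log2 ratio of -0.07. The 6 genes of microRNA processing had all 4 targets in both arms, with FLAG lower in NanogBiD at 5 and equal at 1 (median -0.27). Of 12 let-7 family hairpins, 9 had no FLAG peak within 2 kb in either arm. The share over all microRNA hairpins was not computed. Mirlet7b had BRG1 (13) in NanogWT only, with H3K4me1 at 21 and 15. Mirlet7a-2 had FLAG (20) and BRG1 (14) in NanogBiD only with no mark called. Its hairpin holds the mature microRNA whose maturation LIN28 blocks, shown here from RefSeq with the seed (bases 2 to 8) in capitals.
let-7a-5p: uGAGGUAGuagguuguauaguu

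Hairpin starts are not the promoters of the long primary transcripts, so these windows describe chromatin at the hairpins. The 5 listed let-7 targets went in both directions, with FLAG taller in NanogBiD at 1, equal at 2 and lower at 1 (median log2 ratio 0.00), and H3K27ac taller at 4 and lower at 1 (median 0.33). Hmga2, a chromatin protein, had BRG1 at 20 and 23 and H3K27ac at 31 and 39 with no FLAG in either arm. Igf2bp2, an RNA-binding protein, had FLAG at 15 and 27, BRG1 at 16 and 24 and H3K27ac at 41 and 48. Its relative Igf2bp3 had FLAG at 40 and 35, BRG1 at 23 and 25 and H3K27ac at 50 and 41. FLAG was 14 in each arm at Igf2bp1 and 17 in each arm at Arid3b, a DNA-binding protein.

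Genes elsewhere with the most similar set of tallest summits over the 8 lists were found by Euclidean distance between log2(height + 1) values. For Trim71 they were Slc16a10 (distance 0.261) and Ehhadh (0.291). Slc16a10 had tallest summits of 29 and 39 for FLAG, 16 and 32 for BRG1 and 19 and 30 for H3K27ac. Ehhadh had 30 and 40, 17 and 29, and 21 and 34. Heights greater in NanogBiD for these 3 targets were thus also found away from Trim71, at genes picked by these same heights. For Mycl they were Uap1 (0.213) and Aldh9a1 (0.244), for Lin28a Hes6 and Per2 (0.213 each), for Myc Dpy30 (0.353) and Spast (0.358), for Mycn Rtp1 (0.317) and Adgb (0.32), and for Lin28b Krt39 (0.456) and Adamts9 (0.459). Dpy30 and Spast, and Hes6 and Per2, are neighbours whose windows can hold the same summits.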

How the data were processed

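CUT&Tag peak and summit lists of 8 libraries were analysed, 4 targets in each of 2 arms, with groups taken from the sample titles. Per the submitters' processing notes, Trim Galore 0.6.4, Bowtie2 2.4.5, SAMtools 1.16.1 and MACS 1.4.2 were used with build mm10. Per the methods, the authors removed repetitive, poorly mapped and mitochondrial reads, merged replicates and reduced duplicates to a single tag before peak calling. Beyond a general minimum stated for every experiment, the number of replicates in each list was not given in the sources used here, nor was a control library named. With 1 list per group, no p-value was computed. The labels and the methods name different kits and cell numbers, and the labels give the antibody of the H3K4me1 libraries as H3K4me. The deposited peak lists give a score for each peak, the caller's significance (lowest 50 in every list). The deposited summit lists give a signal, the whole-number tag pileup at the summit, called height here. Neither was scaled to depth by the authors, and depth is unknown. A deeper library can yield more peaks and taller summits.

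Peaks were joined to summits by name and combined into 1 region wherever they overlapped or abutted. Windows were the GENCODE gene body plus 50 kb either side, with peaks counted on any overlap. Distances are from the 5′ end of the gene model. Members and gene lists were chosen with earlier results of these data known. Named regions were those with FLAG and BRG1 in 1 arm only, those at the members' starts, those with each member's tallest FLAG summit, and those with a height that differed at least 2-fold. Other regions were named after their values were seen, to describe the rest of each window. Up to 8 listed pathway genes with FLAG and BRG1 promoter peaks in 1 arm only were to be named, and 2 most similar genes per member, leaving out genes within 1 Mb. Other pathway genes were also named after their values were seen. Furthest peak ends were checked against the reference chromosome lengths. Python 3.11.15, pandas 2.3.3, numpy 2.4.6, SciPy 1.17.1 and matplotlib 3.10.9 were used, and merging was tested on simulated lists. Alternatives were other windows, promoter sizes, score and height minimums, lists of equal length, summit assignment, merging distance, summit windows, score in place of height, and centring.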

Additional observations from a re-analysis of the deposited data

Results flagged for a closer look

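H3K4me1 peak numbers near the 6 genes went the opposite way to those of FLAG. The H3K4me1 ratio of NanogBiD over NanogWT was 0.75, while the FLAG ratio was 1.21. H3K4me1 was fewer in NanogBiD at 4 genes and equal at 2, and FLAG was more at 4 genes and fewer at 2. The complete lists had ratios of 0.791 and 1.27 in the same directions. When lists were limited to their top 20000 peaks by score, both directions turned, to 1.08 for H3K4me1 (12 and 13 peaks) and 0.857 for FLAG (7 and 6 peaks). The difference was not tested, since each ratio came from 1 library per arm, and the part of library depth in it was not tested.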

How the results depend on the processing

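No paired analysis was possible because there was 1 library behind each group, with no replicate numbers, and none could be left out. The peak number ratios stayed inside their intervals under 20 and 100 kb windows, summit assignment, the score minimum of 100 and equal lists of 20000 peaks, but these intervals are wide and some directions turned. With equal lists FLAG went to 0.857, BRG1 to 0.615 and H3K4me1 to 1.08, and with 20 kb windows BRG1 went to 0.909. The H3K27ac ratio of 1.0 was the same with summit assignment and otherwise lay between 1.03 (100 kb windows) and 1.4 (the score minimum). With a height of at least 15, an alternative chosen after seeing the data, the BRG1 ratio was 2.33 (6 and 14 peaks). Regions holding both FLAG and BRG1 in NanogBiD alone numbered 1 with 20 kb windows, 5 with 100 kb windows, 1 among the 20000 highest-scoring peaks per list, 2 at the score minimum and 4 at the height minimum. Those in NanogWT only numbered 0 at a score of at least 100, 1 among the 20000 highest-scoring peaks, 0 at a height of at least 15 and 5 with windows of 100 bp either side of summits. At a score of at least 100, promoter peaks were found at 1 gene for H3K27ac in NanogWT, 1 for FLAG in NanogBiD and 2 for BRG1 in NanogBiD. With promoters of 1 kb either side, they were found at 2 genes for FLAG in NanogBiD and 3 for BRG1 in NanogBiD, and the other counts were unchanged. With score in place of height, the median log2 change of FLAG was 0.06, of BRG1 0.36, of H3K27ac 0.18 and of H3K4me1 -0.28. Centred on the median of all shared regions they were -0.10, 0.05, -0.08 and 0.08, so the FLAG and H3K4me1 directions turned. Of 24 peak number differences, 0 turned with 20 kb windows or summit assignment. Many changed in size without turning, some of them to 0. There were 12 such changes with 20 kb windows, 17 with 100 kb windows, 16 at the score minimum and 14 with equal lists. With summit assignment all 24 were the same. With 100 kb windows Mycn H3K4me1 and Lin28b BRG1 each turned to 2. At a score of at least 100, Lin28a FLAG turned to -1 and Trim71 H3K27ac to 1. Among the 20000 highest-scoring peaks, Myc FLAG turned to -2, Mycl BRG1 to -1, and Lin28b H3K4me1, Trim71 H3K27ac and Trim71 H3K4me1 to 1 each. The cause of these changes was not tested.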
